A study of Homo sapiens with 4 samples.

Results

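MESP1, MESP2, MIXL1 and MSGN1 are transcription factors of the earliest mesoderm, and their 4 rows were taken by gene symbol from a table of 58365 gene rows. Each symbol had a single row. The table covered H1 cells, an established human embryonic stem cell line, at day 2 of hematopoietic differentiation, in 2 DMSO samples and 2 IWP2 samples. All 4 samples were grown in Custom mTeSR1 with activin A at 40 ng/ml and BMP4 at 50 ng/ml as the labels state them, while the written methods give the concentrations the other way round. The DMSO samples had no IWP2, and the concentration of IWP2 was not given in the sources used here. Nothing in the labels says that samples of a group came from separate cultures, so the p-values measure the spread between these samples, which may be technical. The comparison asks how the mesoderm factors respond when Wnt signaling is blocked while activin A and BMP4 are still supplied.

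Cells leaving pluripotency for mesoderm pass through a state that resembles the primitive streak of the embryo, in which Wnt, Nodal/activin and BMP signals act together. MIXL1 is a paired-type homeobox factor of the streak, made in progenitors of both mesoderm and endoderm. MESP1 and MESP2 are related basic helix-loop-helix (bHLH) factors encoded side by side. MESP1 marks the earliest cardiovascular mesoderm, and MESP2 is known for setting segment borders in the presomitic mesoderm. MSGN1, another bHLH factor, is a regulator of presomitic mesoderm. IWP2 inhibits Porcupine, the enzyme that acylates Wnt proteins so that they can be secreted.

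The promoter windows of the members are shown because the compound acts on Wnt signaling, whose nuclear effectors are the TCF/LEF factors. RefSeq windows on GRCh38.p14, from 250 bases before to 50 bases after the start site, were at hand for 3 of the 4 members, MESP2, MIXL1 and MSGN1. All 3 genes lie on the plus strand, and the windows are chr15:89776082-89776381, chr1:226223414-226223713 and chr2:17816210-17816509. Capitals mark the letters CTTTGA, the core word searched for TCF/LEF, read on both strands.
MIXL1: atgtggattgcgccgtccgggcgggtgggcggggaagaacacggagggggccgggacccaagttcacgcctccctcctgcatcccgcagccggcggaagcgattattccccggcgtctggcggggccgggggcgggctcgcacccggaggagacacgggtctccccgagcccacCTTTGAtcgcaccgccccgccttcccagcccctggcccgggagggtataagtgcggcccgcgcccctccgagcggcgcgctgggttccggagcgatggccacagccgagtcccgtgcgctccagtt
MSGN1: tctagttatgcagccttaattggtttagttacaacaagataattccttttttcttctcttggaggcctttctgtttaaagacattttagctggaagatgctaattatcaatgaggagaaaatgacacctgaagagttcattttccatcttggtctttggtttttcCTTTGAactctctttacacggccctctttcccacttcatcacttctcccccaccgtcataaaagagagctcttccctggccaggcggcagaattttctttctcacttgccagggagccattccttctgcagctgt
MESP2: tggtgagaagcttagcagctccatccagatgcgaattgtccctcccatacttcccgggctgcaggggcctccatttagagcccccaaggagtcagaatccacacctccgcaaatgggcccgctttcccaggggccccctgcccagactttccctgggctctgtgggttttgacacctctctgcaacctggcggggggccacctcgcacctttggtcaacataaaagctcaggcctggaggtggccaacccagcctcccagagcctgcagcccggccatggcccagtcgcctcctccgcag

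The word CTTTGA was found once in the MIXL1 window, on the plus strand with its first base at position -76 from the start site. It was found once in the MSGN1 window, on the plus strand at -85. The MESP2 window did not hold these letters. Of the 35116 promoter windows of this length, 12.9% held the word. The T-box word GGTGTGA, which 3.45% of the windows held, was in none of the windows of MIXL1, MSGN1 and MESP2. The E-box word CANNTG, read by bHLH factors and held by 68.7% of the windows, occurred at 3 places in the MSGN1 window and at 2 in the MESP2 window. The SMAD word CAGAC, held by 45.3%, occurred once in the MIXL1 window and once in the MESP2 window. A match to such short letters is a description of the window and not a binding site.

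MIXL1 had the highest level of the members in both groups. The values, in FPKM (fragments scaled to transcript length and to library size, so that levels can be compared between genes), were 278 and 317 in the DMSO samples. With IWP2 they were 21.7 and 25.4. The groups did not overlap, and both IWP2 samples kept a clear MIXL1 signal. The mean was 298 ± 28.2 (SD, n = 2) in DMSO and 23.6 ± 2.61 (SD, n = 2) with IWP2, so the IWP2 level was 7.93% of the DMSO level. On the log2(FPKM + 1) scale MIXL1 (ENSG00000185155.11, chr1:226223618-226227054 on GRCh38) fell by 3.60 ± 0.12 (SE), with a Benjamini-Hochberg adjusted p of 0.000400 by limma. Ranked among all genes of its library, MIXL1 moved from position 281 and 241 in DMSO to 4070 and 3576 with IWP2.

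MESP1 went from a well expressed gene to a few fragments. MESP1 was at 47.6 and 74.6 FPKM in DMSO. With IWP2 it was at 0.244 and 0.0870 FPKM. The DMSO samples differed from each other more than for MIXL1, and both were far above either IWP2 sample. The mean was 61.1 ± 19.1 FPKM (SD, n = 2) against 0.165 ± 0.111 FPKM (SD, n = 2), a ratio of the means of 370-fold, with the IWP2 level at 0.271% of the DMSO level. MESP1 (ENSG00000166823.5, chr15:89748661-89751310) fell by 5.70 ± 0.24 (SE) on the log2(FPKM + 1) scale (limma adjusted p = 0.000631), and only 2 of the 15957 genes tested had a larger decrease on this scale. The added 1 shrinks the change of a gene this low, which is why the log2 value is smaller than the ratio. The IWP2 values stand for no more than about 14.0 and 4.32 fragments, so the ratio itself is loosely determined.

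MESP2 followed MESP1 at a lower level. MESP2 was at 15.5 and 20.6 FPKM in DMSO. With IWP2 it was at 0.306 and 0.120 FPKM. Again the groups did not overlap, and the IWP2 values stand for no more than about 11.9 and 4.07 fragments. The mean was 18.0 ± 3.61 FPKM (SD, n = 2) in DMSO and 0.213 ± 0.131 FPKM (SD, n = 2) with IWP2, which is 1.18% of the DMSO level and a ratio of 84.7-fold. MESP2 (ENSG00000188095.4, chr15:89760591-89778754) fell by 3.96 ± 0.19 (SE) on the log2(FPKM + 1) scale (limma adjusted p = 0.000892). The MESP2 gene as annotated in the table starts 9280 bases beyond the end of MESP1 on the chromosome. The RefSeq start site used for the promoter window lies further along, inside this annotated gene, so the window does not cover the start of the longer gene model.

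MSGN1 was hardly expressed in any sample. MSGN1 was at 1.00 and 0.446 FPKM in DMSO and was listed at 0 in both IWP2 samples. The gene (ENSG00000151379.3, chr2:17816496-17817101) has a single annotated transcript of 606 bases, and its DMSO values stand for no more than about 13.3 and 5.31 fragments. Its mean over the 4 samples was under the 0.5 FPKM required for testing, so it was tested in a fit over every gene above 0 in any sample. There the difference on the log2(FPKM + 1) scale was -0.77 ± 0.19 (SE), with an adjusted p of 0.171 by limma, which did not pass the threshold of 0.05. The 95% interval of the difference was -1.34 to -0.19 without adjustment for the number of genes. No fold was computed against a group listed at 0.

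**Figure D1:**
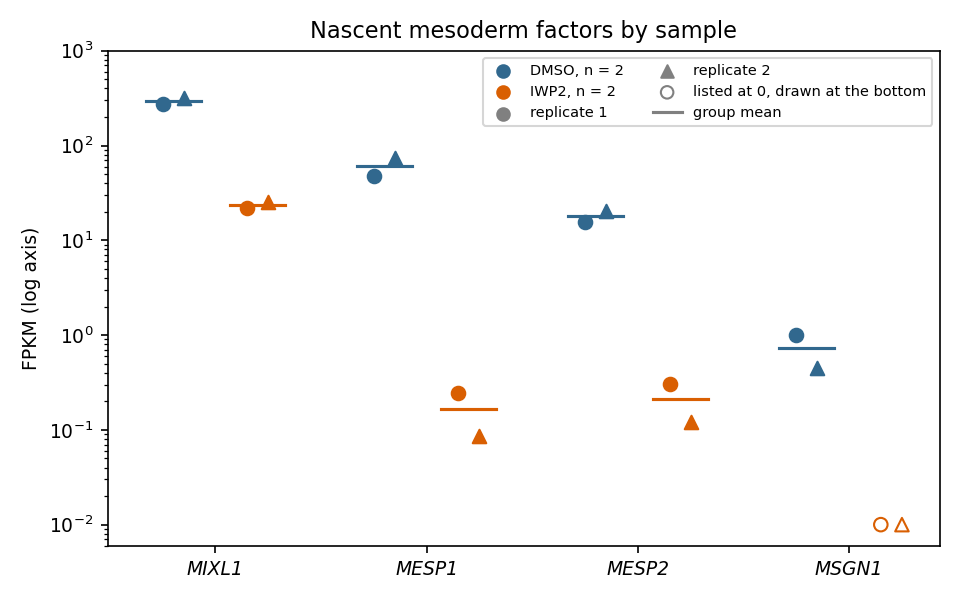
FPKM of the 4 mesoderm factors in each of the 4 samples, on a log axis; blue marks DMSO, orange IWP2, circles replicate 1, triangles replicate 2, and bars the mean of 2 samples. MIXL1 keeps 21.7 and 25.4 FPKM with IWP2, MESP1 and MESP2 lie under 0.5, and the IWP2 values of MSGN1, listed at 0, are drawn as open symbols at the bottom.

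MESP1, MESP2 and MIXL1 passed the filter on low values, MESP1 and MESP2 through their DMSO levels alone, so their number carries no weight as evidence. All 3 were called lower, where 7.39% of the 15957 genes tested were called lower and 5.86% higher at an adjusted p under 0.05. In the fit over every gene above 0, in which 0.922% of 28846 genes were called lower, the adjusted p by limma was 0.0342 for MESP1, 0.0361 for MESP2 and 0.0250 for MIXL1. An exact permutation test on 2 against 2 samples cannot go below a two-sided p of 0.333, which is what each of the 4 members gave. In bulk RNA, fewer cells expressing a factor and less RNA per cell cannot be told apart. The libraries were of like depth, about 19600000 to 24200000 fragments as estimated from the lowest steps in the values, and samples of a group correlated across tested genes, which are not independent replicates, at r = 0.975 (DMSO) and 0.981 (IWP2) on the log2 scale.

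**Figure D2:**
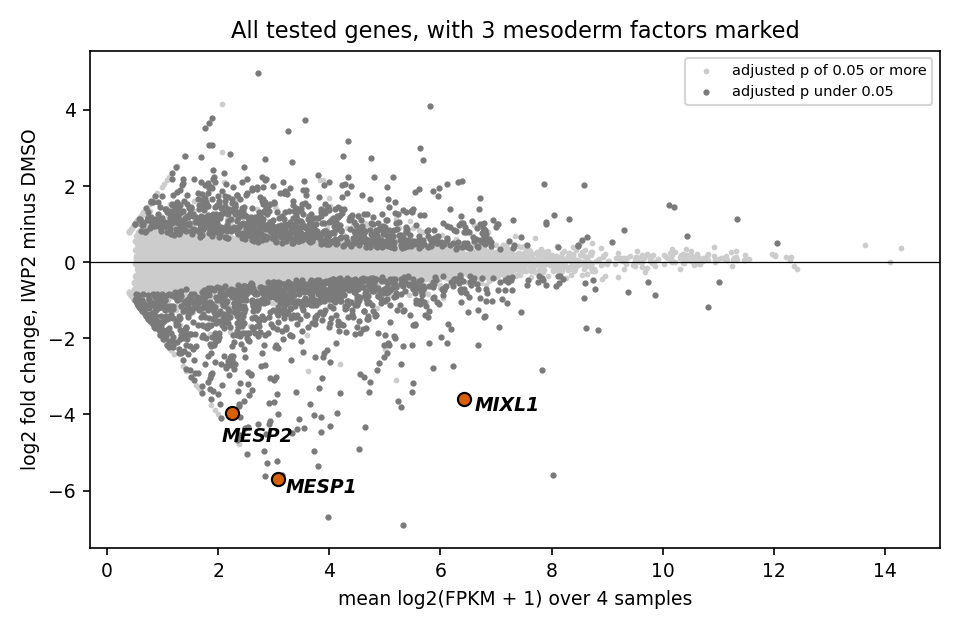
The log2 fold change on log2(FPKM + 1), IWP2 minus DMSO, against the mean log2(FPKM + 1) of all 15957 tested genes, with dark grey for adjusted p under 0.05. MESP1 at -5.70, MESP2 at -3.96 and MIXL1 at -3.60 are marked in orange and lie far under most genes of their level.

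The order of the levels was clear in DMSO and only partly so with IWP2. In both DMSO samples it was MIXL1, MESP1, MESP2, MSGN1, with no value of one gene reaching that of its neighbour in the order. With IWP2, MIXL1 remained the highest and MSGN1 the lowest, but MESP1 and MESP2 overlapped. The ratio of MESP1 to MESP2 in FPKM was 3.07 and 3.62 in the DMSO samples and 0.797 and 0.723 in the IWP2 samples. The IWP2 ratios rest on no more than about 14.0 against 11.9 fragments in replicate 1 and 4.32 against 4.07 in replicate 2. An order of MESP1 and MESP2 with IWP2 cannot be read from so few fragments. The ratio of MESP1 to MIXL1 was 0.172 and 0.235 in DMSO and 0.0112 and 0.00342 with IWP2. That of MESP2 to MIXL1 was 0.0558 and 0.0648 in DMSO and 0.0141 and 0.00473 with IWP2. The few fragments of MESP1 and MESP2 with IWP2 limit these ratios as well. On the log2(FPKM + 1) scale the difference of MESP1 over MIXL1 changed by -2.10 from DMSO to IWP2, that of MESP1 over MESP2 by -1.74 and that of MESP2 over MIXL1 by -0.36. In each of these 3 comparisons the DMSO and IWP2 samples did not overlap. For MESP2 over MIXL1 the gap was narrow, from -4.08 in DMSO replicate 1 to -4.12 in IWP2 replicate 1. Each comparison had an exact two-sided permutation p of 0.333, the smallest that 2 against 2 samples allow. Those log2 differences are bounded by the added 1 for MESP1 and MESP2, whose IWP2 values lie under it.

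The genes next to the members did not share one pattern. ANPEP, which encodes the membrane peptidase CD13, is the nearest gene beyond MESP2 and lies 6135 bases past its end. ANPEP was at 14.8 and 21.4 FPKM in DMSO. With IWP2 it was at 0.327 and 0.165 FPKM. These are close to the values of MESP2 in all 4 samples, and ANPEP fell by 3.92 ± 0.21 (SE) on the log2(FPKM + 1) scale (limma adjusted p = 0.00113). On the other side of the pair, WDR93 had a mean of 0.186 FPKM in DMSO and 0.0263 FPKM with IWP2, too low for the filter, with an adjusted p of 0.136 by limma in the fit over every gene above 0. AC079075.1, the noncoding gene between MESP1 and MESP2, was listed at 0 in 3 samples and at 0.0752 FPKM in the other.

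LIN9, the gene next to MIXL1 at a distance of 4095 bases, had a mean of 4.99 ± 0.327 FPKM in DMSO and 4.92 ± 0.250 FPKM with IWP2 (SD, n = 2 each). Its difference was -0.02 ± 0.13 (SE) on the log2(FPKM + 1) scale with a limma adjusted p of 0.945, while MIXL1 beside it was called lower. The pseudogene on the other side of MIXL1, AL592045.1, was listed at 0 in every sample. Around MSGN1, SMC6 went from a mean of 13.2 to 11.1 FPKM (limma adjusted p = 0.484), and KCNS3, a potassium channel subunit gene, from 4.30 to 7.99 FPKM (limma adjusted p = 0.0528). Neither passed the threshold.

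**Figure D3:**
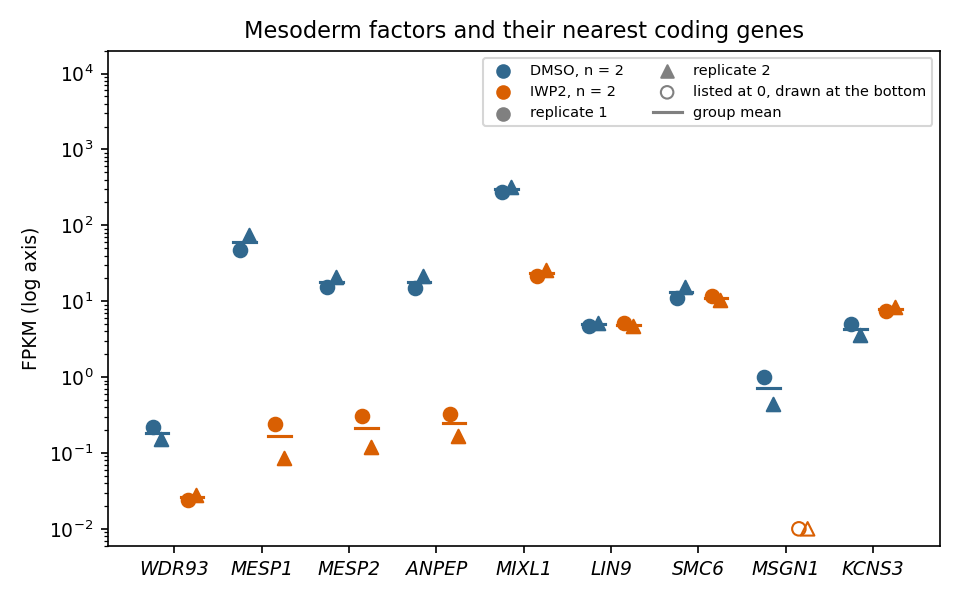
FPKM on a log axis for the members and for the protein-coding ones among the nearest genes on either side, in chromosomal order within each locus. On the side of MIXL1 away from LIN9 the nearest gene is the pseudogene AL592045.1, and no coding gene is drawn there. Colours and symbols are as for the members' plot. ANPEP sits at the levels of MESP2 in all 4 samples, while LIN9 beside MIXL1 is at 4.99 FPKM in DMSO and 4.92 FPKM with IWP2.

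Genes with the most similar course were found as those with the smallest Euclidean distance between values on the log2(FPKM + 1) scale, each gene centred on its own mean, over the 4 samples. The nearest to MESP1 were CER1, a secreted antagonist of Nodal and BMP, at a distance of 0.23, the unnamed transcript AL139099.5 at 0.25, and DLL3, a Notch ligand of the presomitic mesoderm, at 0.25. CER1 fell from a mean of 1830 to 36.4 FPKM and DLL3 from 63.2 to 0.273 FPKM. The nearest to MESP2 was its neighbour ANPEP at 0.097, followed by NKD1, a Wnt feedback antagonist, at 0.19 and GATA4 at 0.20. The nearest to MIXL1 were CDH11, a mesenchymal cadherin, at 0.17, FOXF1 at 0.17 and FAM89A at 0.19. CDH11 kept 7.61% of its DMSO level with IWP2, close to the share of MIXL1, whereas FOXF1, whose values with IWP2 were 0.0243 and 0.0844 FPKM, kept 0.454%. For MSGN1 the nearest were DZIP1L, CHST3 and ITPRIPL2 at 0.029, 0.037 and 0.042, none of which passed the test. With IWP2 these genes kept 50.1%, 51.9% and 53.3% of their DMSO level, whereas MSGN1 was listed at 0. The added 1 shrinks the change of a gene as low as MSGN1. It also shrinks those of MESP1 and MESP2, whose IWP2 values lie under it, so their distances depend on it. With IWP2, CER1 kept 1.99% and AL139099.5 0.0643% of its DMSO level, against 0.271% for MESP1.

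Most of the other regulators of the primitive streak that were tested fell alongside MESP1, MESP2 and MIXL1. Of the 20 genes listed, 19 passed the filter, and 16 were called lower and 0 higher by limma. The median log2 difference was -1.85, against -0.01 over all genes tested. Over all genes tested, 7.39% were called lower and 5.86% higher, the shares to set beside the counts of each list. SP5, a direct Wnt target, fell from a mean of 50.1 to 0.371 FPKM, LHX1 from 39.2 to 0.276, EVX1 from 33.8 to 0.526 and GSC from 25.1 to 0.243. Of the markers that define early mesoderm, EOMES fell from 145 ± 10.4 to 12.7 ± 0.156 FPKM (SD, n = 2 each), while TBXT, listed under its older symbol T, was at 21.6 and 18.5 FPKM in DMSO and at 9.40 and 10.4 FPKM with IWP2. The decrease of TBXT was 0.94 ± 0.12 (SE) on the log2(FPKM + 1) scale (limma adjusted p = 0.0114), so that 49.5% of its DMSO level was left against 7.93% for MIXL1, and this contrast between the genes was not tested. Without one or the other IWP2 sample, 8 and 9 of the streak genes were called, and without one or the other DMSO sample 13 and 14.

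Presomitic and segmentation genes, among which MSGN1 and MESP2 act, were a mixed group. Of the 18 listed, 12 passed the filter, 6 were called lower and 1 higher, with a median log2 difference of -0.65. DLL3 fell by 5.60 on the log2(FPKM + 1) scale (limma adjusted p = 0.00101). EPHA4, an ephrin receptor of segment borders, fell from 15.7 to 1.18 FPKM, the EMT factor SNAI1 from 39.1 to 5.49 and FOXC1 from 4.72 to 0.559, with limma adjusted p of 0.00141, 0.00104 and 0.00353. The gene called higher was NRARP, a Notch feedback gene, from 3.56 to 10.3 FPKM. Among the genes too low for the filter were the segmentation clock gene HES7 and the segment patterning genes RIPPLY1 and RIPPLY2. Their highest values in any sample were 0.424, 0.0958 and 0.631 FPKM. HES7, RIPPLY1, RIPPLY2 and NRARP were picked out after their values were seen. Without either IWP2 sample 3 of the genes were called lower and 0 higher. The median depends on which low genes are tested and on single samples, being -0.28 without DMSO replicate 2, -1.04 and -1.12 without IWP2 replicate 1 and 2, -0.30 on rescaling to an equal sum, -1.85 with a filter of at least 1 FPKM and -0.11 with no filter.

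Most of the tested genes of cardiovascular mesoderm, the fate MESP1 is known for, fell with it. Of 18 listed, 17 passed the filter, 13 were called lower and 0 higher, with a median log2 difference of -2.45. The share called lower over all genes tested was 7.39%. GATA6 fell from a mean of 127 to 3.26 FPKM, GATA4 from 69.4 to 3.47, FOXF1 from 12.0 to 0.0543 and the EMT factor SNAI2 from 16.7 to 0.908. The 4 tested genes not called were ETV2, MYOCD, TWIST1 and ISL1, with limma adjusted p of 0.407, 0.382, 0.236 and 0.690. SNAI1 is on this list as well as on the previous one. Without one or the other IWP2 sample, 7 and 8 genes were called lower. Without one or the other DMSO sample the numbers were 11 and 12.

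Endoderm markers, which share the MIXL1-expressing streak, included 7 tested genes of 9 listed, of which 5 were called lower and 0 higher. CER1 fell by 5.60 on the log2(FPKM + 1) scale (limma adjusted p = 0.000302). FOXA2 fell from a mean of 4.89 to 0.259 FPKM, CXCR4 from 19.3 to 4.16 and HHEX from 2.19 to 0.323, with limma adjusted p of 0.00979, 0.0108 and 0.0124. The DMSO samples summed to 1820 and 2185 FPKM over the list and the IWP2 samples to 135 and 147. CER1 made up most of the sum in DMSO, and SOX17 most of it with IWP2. SOX17 was at 155 and 104 FPKM in DMSO and 79.7 and 94.9 with IWP2 (limma adjusted p = 0.166), and HNF4A, at most 0.572 FPKM in DMSO, was listed at 0 with IWP2. Without either IWP2 sample 1 gene of the list was called lower, and without one or the other DMSO sample 3 and 4.

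Pluripotency, neural and amnion markers, of other cells that the dish could hold, changed in both directions. Their part in the decrease of the members was not tested. Of 12 pluripotency markers, all tested, 6 were called higher and 1 lower, with summed levels of 1196 to 1380 FPKM in DMSO and 2611 to 2616 FPKM with IWP2. SOX2 was at 0.193 and 0.174 FPKM in DMSO and at 35.6 and 36.1 with IWP2, a rise of 4.96 ± 0.12 (SE) on the log2(FPKM + 1) scale (limma adjusted p = 0.000302). PRDM14 rose from 1.34 and 1.64 FPKM to 6.98 and 7.42 FPKM and POU5F1 from a mean of 661 to 1849 FPKM. POU5F1 made up most of the rise in the summed level. Without either IWP2 sample, 1 pluripotency marker was called higher and 1 lower.

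Of 8 neural ectoderm markers 5 were tested, with 2 called higher (SOX3 and NES) and 1 lower (OTX2, from 58.5 to 2.57 FPKM). Their summed level was 150 to 157 FPKM in DMSO and 133 to 143 with IWP2, and SOX1 was at most 0.0355 FPKM. Most of the sum came from OTX2 and NES, which moved in opposite directions, NES from a mean of 92.8 to 131 FPKM. Of 10 amnion and trophoblast markers 9 were tested, with KRT7, TFAP2A and GABRP called higher and CDX2 and HAND1 lower, which are also on the streak and cardiovascular lists. Their summed level was 753 to 760 FPKM in DMSO and 681 to 742 with IWP2. Most of it came from KRT18, with means of 384 and 462 FPKM, and HAND1, with means of 278 and 110 FPKM, in DMSO and IWP2. These moved in opposite directions, and KRT18 was not called. Without either IWP2 sample none of the genes of these neural and amnion lists was called higher, while without either DMSO sample 1 neural and 3 amnion and trophoblast markers were.

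The bHLH members act as dimers with E proteins, which the ID proteins bind in their place. TCF3, an E protein, had a mean of 160 FPKM in DMSO and 158 FPKM with IWP2, and the difference was -0.01 ± 0.08 (SE) on the log2(FPKM + 1) scale. TCF4 fell from 69.6 to 27.1 FPKM. ID1 rose from a mean of 717 to 1954 FPKM, ID4 from 31.3 to 75.1 and ID3 from 91.1 to 186. Of the 7 genes listed, all tested, 3 were called higher and 1 lower, and leaving out each sample in turn, 1 or 2 were called higher. TCF4 (limma adjusted p = 0.0355) was no longer called lower without either DMSO sample, without IWP2 replicate 2, with no intensity trend in the fit or with no filter.

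**Figure D4:**
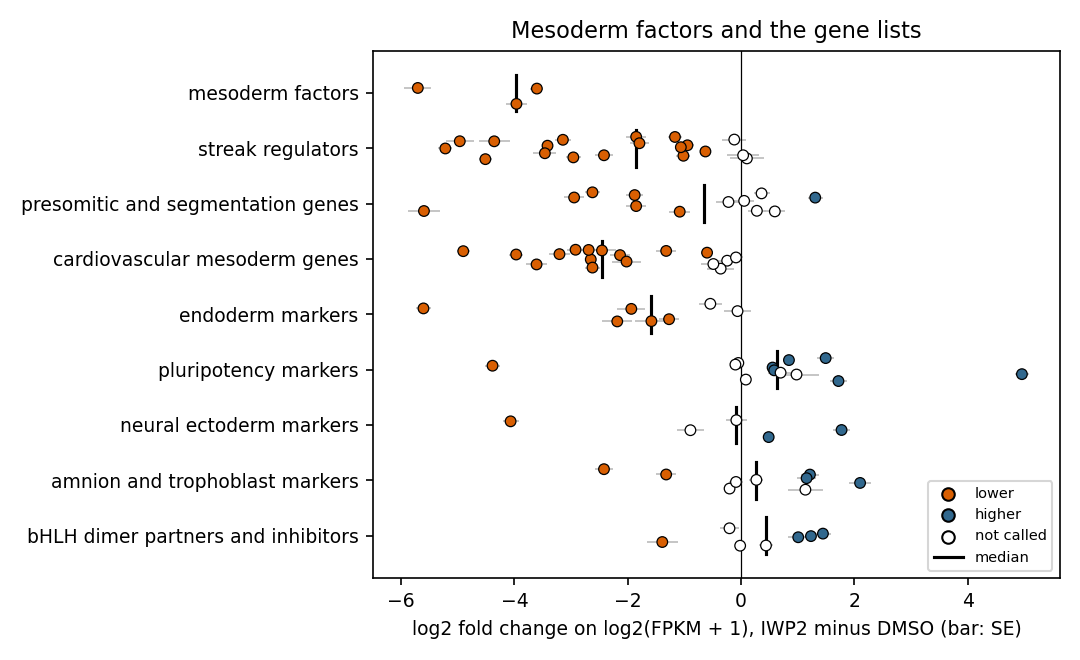
Log2 fold changes on log2(FPKM + 1), IWP2 minus DMSO, of the 3 tested mesoderm factors and of the tested genes of each list; each point is a gene with its SE, orange called lower, blue higher and white not called, and the black bars are medians. The median is -1.85 for the streak regulators, -2.45 for the cardiovascular genes and 0.64 for the pluripotency markers.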

How the data were processed

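RNA of 2 DMSO and 2 IWP2 samples was sequenced from TruSeq libraries. The names of the value columns, without or with IWP2, set the groups. The deposited values are FPKM per gene, which the authors had already normalized for length and depth. The submitters' processing notes name BWA, Bowtie and RSEM, with no role or version, and hg19, but 53960 of the 53982 rows whose identifier is in GENCODE release 29 carry its GRCh38 coordinates, so GRCh38 is used here. Depth was estimated from single-transcript genes over 5000 bases, with the lowest step in their values taken as 1 fragment. Of the low values checked, 84.4% to 98.2% lay within 0.1 of a whole number of fragments. The 11 to 21 genes per sample that set the step were among the 45 to 58 checked, so this share is not an independent check. Fragment numbers of the members use the longest transcript and are upper estimates that cover counting only.

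For repeated symbols the row with the highest mean was kept. Genes with a mean of at least 0.5 FPKM over the 4 samples were tested by limma 3.58.1 (R 4.3.3) with an intensity trend on log2(FPKM + 1), with Benjamini-Hochberg adjustment over all 15957 genes and a threshold of 0.05. The fit was tested on simulated data with independent noise, with changes put only into genes above a set mean level. That simulation does not cover genes near 0 or samples that are technical replicates. Up to 4 genes per list were named by the size of the change among those called. TBXT and EOMES were fixed as markers of early mesoderm. SOX17, HHEX, HNF4A, SOX1, GABRP, TCF3, KRT18, ETV2, MYOCD, TWIST1 and ISL1 were picked out after their values were seen. Some list genes are counted but not reported here by name. Chromosomal neighbours, 3 nearest patterns and promoter words were fixed by rule. Members and lists were chosen with earlier results of these data known. Alternatives were other pseudocounts, filters, scalings, no trend, a replicate block and leaving out each sample.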

Additional observations from a re-analysis of the deposited data

How the results depend on the processing

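MESP1, MESP2 and MIXL1 kept their direction and an adjusted p under 0.05 in all 12 alternatives each, and MSGN1 stayed negative and above the threshold in all 10 that gave it a value. The size of the MESP1 difference depends on the pseudocount, being -7.88 at 0.1 and -6.51 at 0.5, where MIXL1 gave -3.65 and -3.63, and that of MSGN1 went to -2.96 and -1.25. The medians of the streak and presomitic lists were -3.50 and -1.36 at 0.1. With the replicate block, by the numbers in the column names, MESP1 had an adjusted p of 0.00129 by limma, and 1073 genes were lower and 849 higher. Same-numbered samples share only a number, with a correlation of deviations of 0.138, and no call of a member changed.

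The counts over all genes, 1180 lower and 935 higher, dropped to 266 and 118 with no filter, where more genes were tested. In that fit 11 streak, 4 presomitic, 7 cardiovascular and 1 endoderm genes were lower, and 3 pluripotency, 1 neural, 1 bHLH-list and 0 amnion genes higher. Leaving out each sample in turn, which leaves a lone sample assumed to vary like the other group, gave 140 to 599 lower and 46 to 384 higher, with the lowest counts without an IWP2 sample. Median-of-ratios scaling and rescaling to an equal sum changed no direction given for a list and no call of a member. A filter of at least 1 FPKM could give no value for MSGN1. Count tests were not run, because the table holds no counts. With 2 samples per group and values under 1 FPKM, the depth limits MSGN1 and the IWP2 levels of MESP1 and MESP2.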
